A study of Rattus norvegicus with 32 samples.

Results

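Ucp2 and Ucp3 encode uncoupling proteins, carriers of the inner mitochondrial membrane, and their transcripts were followed here library by library in the gastrocnemius of rats, the large calf muscle, in which fast fibres prevail. The members were the rows whose gene name is Ucp2 (ENSRNOG00000017854) or Ucp3 (ENSRNOG00000017716), 2 of the 12901 genes in the table, and both passed the filter on low counts. The table as used here has no row named Ucp1, so Ucp1 was not analysed here, and the knockout label has no check from its own gene. The muscles came from male, chow-fed rats aged 20 weeks and form 4 groups: 9 libraries of UCP1 knockout rats after 2 weeks at 4 °C (KO_4C), 9 of UCP1 knockout rats at room temperature (KO_RT), 7 of controls kept in the same cold for as long (control_4C) and 7 of control rats at room temperature (control_RT). The labels do not describe the knockout allele or the strain, nor do they tie libraries of the 2 temperatures to animals. P-values therefore measure the spread between these samples, which may be technical in part.

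UCP1, the founding member of the family, lets protons return to the mitochondrial matrix of brown fat without making ATP, so that fuel oxidation gives heat. UCP3 is found mainly in skeletal muscle and brown fat, and its transcript is known to follow fatty acid supply, as in fasting. UCP2 is found in many tissues, immune cells among them, and has been linked to mitochondrial oxidant production and to the export of metabolites from the matrix.

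The 2 genes lie next to each other in the same orientation on chromosome 1, Ucp3 first. The windows around their start sites are shown because the 2 neighbours differed in how their transcripts changed in the cold. Both sequences run 5′ to 3′ on the plus strand from 250 bases before to 50 bases after the RefSeq start site (build GRCr8), and capitals mark every match of the motifs searched. Ucp3 covers chr1:164227660-164227959 and Ucp2 covers chr1:164251123-164251422.
Ucp3: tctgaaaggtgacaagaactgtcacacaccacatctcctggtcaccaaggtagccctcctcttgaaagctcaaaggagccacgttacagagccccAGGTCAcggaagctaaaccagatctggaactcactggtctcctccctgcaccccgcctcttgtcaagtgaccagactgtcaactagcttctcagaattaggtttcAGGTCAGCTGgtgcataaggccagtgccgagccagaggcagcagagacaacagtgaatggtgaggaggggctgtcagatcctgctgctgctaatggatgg
Ucp2: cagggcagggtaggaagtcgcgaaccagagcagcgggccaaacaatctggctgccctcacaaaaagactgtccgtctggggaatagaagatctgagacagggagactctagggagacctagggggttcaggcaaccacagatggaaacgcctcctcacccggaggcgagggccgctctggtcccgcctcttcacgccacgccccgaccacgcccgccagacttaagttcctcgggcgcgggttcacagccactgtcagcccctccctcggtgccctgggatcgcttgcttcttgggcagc
The 5 motifs were searched on both strands. They were the nuclear receptor half-site AGGTCA, the E-box sequence CAGCTG, the GC box sequence GGGCGG, the TATA box sequence TATAAA and the short element known by its letters CCAAT. The Ucp3 window held AGGTCA at 2 positions, -155 and -50 from the start site, and CAGCTG at -46, which overlaps the second AGGTCA. Of 33469 rat promoter windows of the same length, 16.2% held at least 1 AGGTCA, 1.81% held at least 2, and 15.1% held CAGCTG. The Ucp2 window held none of the 5 motifs, whose shares over all windows also include 33.1% for GGGCGG, 14.2% for TATAAA and 37.5% for CCAAT. The windows differed in base composition, with 54% G and C and 4 CpG in Ucp3 against 63.3% and 19 CpG in Ucp2, where the median of all windows was 51.7% and 7 CpG.

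Library totals ran from 7.28e+06 to 2.58e+07 deposited counts. All counts are even, and counting errors below treat each read as entered in duplicate. Muscle transcripts dominated every library: Ckm, muscle creatine kinase, was at 11680 CPM (counts scaled to library size) or more and Acta1, skeletal actin, at 29746 CPM or more. At room temperature 4 libraries (KO_RT libraries KO8 and KO10, control_RT replicates 2 and 3) stood apart in earlier work on these data by low levels of a group of transcripts, and values without them are given for the changes in the cold. KO_RT libraries are named by the number in their column, since 2 of those numbers occur in the labels of more than 1 sample of the group. CPM values are also scaled by TMM factors, and QuantSeq reads come from transcript ends, so no length correction was made and levels were not ranked between genes.

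Ucp2 transcripts were about 2.7 times as high in the cold as at room temperature in control rats, and about as much higher in knockout rats. The lowest, median and highest Ucp2 levels were 8.66, 10.3 and 21.3 CPM in control_4C, against 3.14, 4.92 and 6.33 CPM in control_RT. All 7 control_4C libraries lay above all 7 control_RT libraries, a separation that 3.42% of the 11594 tested genes also showed upward in this comparison. In knockout rats, where 0.975% of tested genes separated upward, Ucp2 was at 5.68, 10.1 and 26.2 CPM (lowest, median, highest) in KO_4C, against 2.56, 4.14 and 6.60 CPM in KO_RT. The knockout groups overlapped, with 8 of 9 KO_4C libraries above the highest KO_RT library (KO8) and KO_4C replicate 1 below it. Group means were 12.3 ± 4.38 CPM in control_4C and 4.51 ± 1.23 CPM in control_RT (SD, n = 7 each), and 12.0 ± 6.16 CPM in KO_4C and 4.55 ± 1.19 CPM in KO_RT (SD, n = 9 each).

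**Figure D1:**
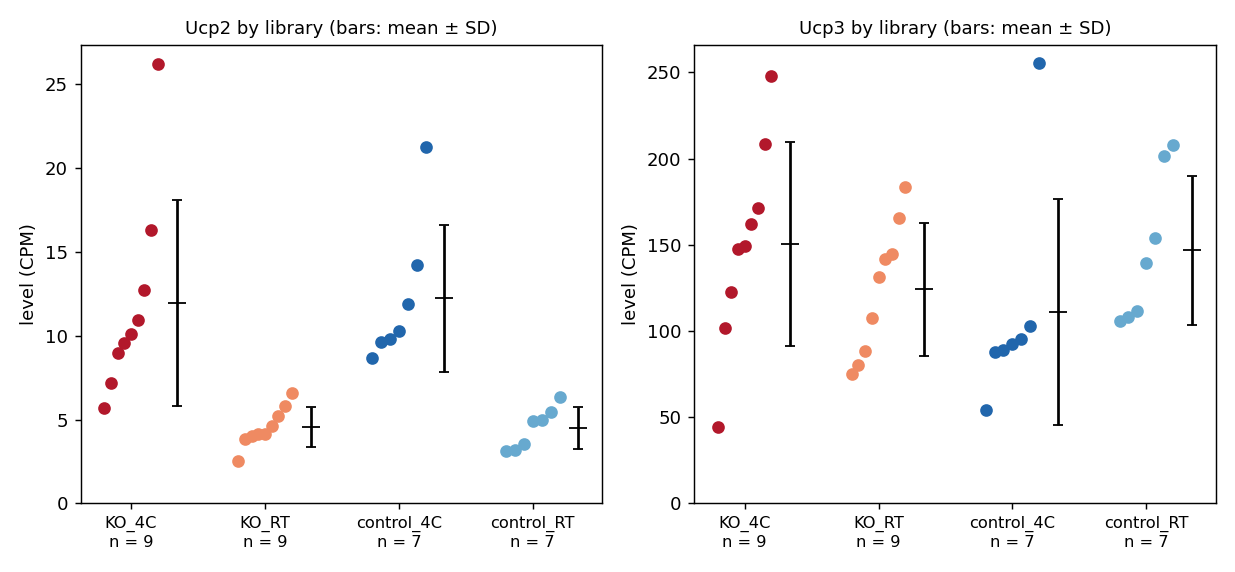
Level of Ucp2 (left) and Ucp3 (right) in CPM in every library, by group; each point is 1 library, sorted by level, and black bars are mean ± SD. For Ucp2 the cold groups reach 26.2 CPM and the room-temperature groups stay at or below 6.60 CPM, while for Ucp3 the 4 groups overlap.

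In edgeR's quasi-likelihood test over all genes, with Benjamini-Hochberg adjustment, Ucp2 was 2.70-fold higher in control_4C than in control_RT (95% interval 1.88 to 3.89; log2 change 1.44 ± 0.26 SE, adjusted p = 0.000226). It ranked 140 by p among the tested genes, in a comparison where 20.7% of genes passed, 12.4% upward and 8.28% downward. In knockout rats it was 2.64-fold higher in KO_4C than in KO_RT (95% interval 1.91 to 3.64; log2 change 1.40 ± 0.23 SE, adjusted p = 4.98e-05), where 13.8% of genes passed, 7.49% upward and 6.28% downward. Two-sided exact permutation tests on log2 CPM gave p = 0.000583 in control rats (0.00233 adjusted over the 8 tests on the members) and 0.000123 in knockout rats (0.000987 adjusted). Without the 4 libraries that stood apart, the log2 change was 1.29 ± 0.29 in control rats (adjusted p = 0.00250) and 1.45 ± 0.26 in knockout rats (adjusted p = 0.000258). Counts behind these levels were modest, 98 to 302 in control_4C, 80 to 308 in KO_4C, 38 to 80 in KO_RT and 38 to 92 in control_RT, with a median counting error of 10.9% in control_4C and 18.3% in each room-temperature group. The spread between libraries exceeded it, with coefficients of variation of 35.8% in control_4C, 51.5% in KO_4C, 26.1% in KO_RT and 27.4% in control_RT.

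**Figure D2:**
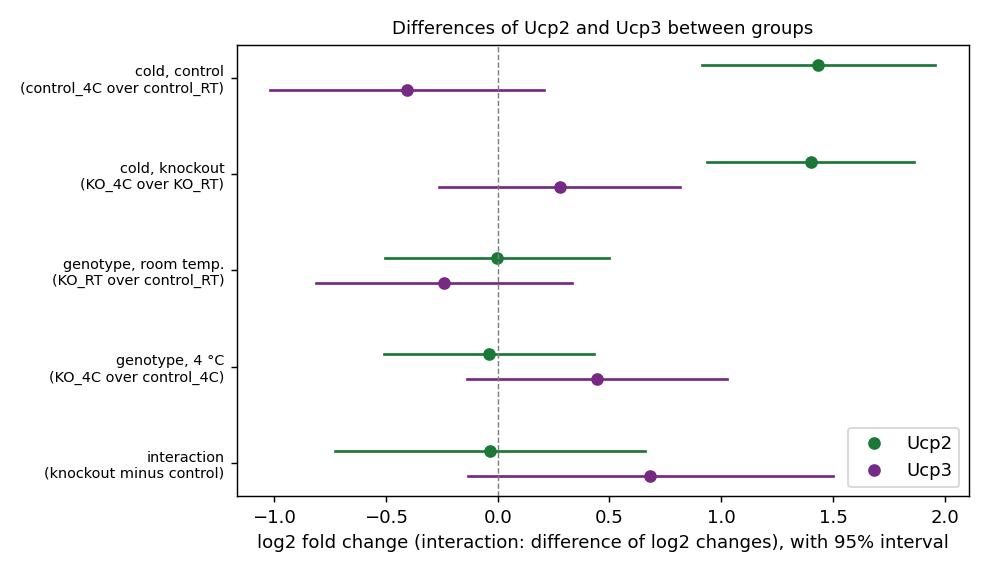
Log2 fold change of Ucp2 (green) and Ucp3 (purple) in the 4 pairwise comparisons and the interaction, with 95% intervals as lines. The intervals of Ucp2 in both cold comparisons lie wholly above 0 (from 0.91 in control and 0.94 in knockout rats), and the other 8 intervals include 0.

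Ucp2 did not pass the test between genotypes at either temperature. The log2 change of KO_RT over control_RT was -0.0043 ± 0.25 SE (95% interval -0.51 to 0.50, adjusted p = 0.997), and that of KO_4C over control_4C was -0.039 ± 0.23 SE (interval -0.51 to 0.43, adjusted p = 0.973). The difference between the 2 cold responses, knockout minus control, was -0.034 ± 0.34 on the log2 scale (interval -0.73 to 0.66, adjusted p = 0.980). These intervals leave room for genotype differences of up to about 0.5 in either direction at each temperature. For the difference in cold response they leave room from -0.73 to 0.66. On the order of levels, control_4C, KO_4C, KO_RT and control_RT, neighbours within a temperature did not differ beyond their spread, and KO_4C and KO_RT did. On the authors' normalised scale, which differs only in the size factors, Ucp2 averaged 154 ± 78.5 in KO_4C and 59.4 ± 15.96 in KO_RT (SD, n = 9 each), and 159 ± 56.3 in control_4C and 58.9 ± 16.2 in control_RT (SD, n = 7 each).

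Slow-fibre and macrophage markers were higher in the cold, as Ucp2 was. In these bulk samples more cells of a type and more RNA per cell cannot be told apart. Among all tested genes, 12.4% were called higher in the cold in control rats and 7.49% in knockout rats. Of 15 slow oxidative fibre genes, 13 were higher and none lower in the cold in each genotype, among them Myoz2, a Z-disc protein of slow fibres, with log2 changes of 0.97 ± 0.17 SE in control rats and 0.96 ± 0.15 in knockout rats (adjusted p = 0.000257 and 4.98e-05). The summed slow-fibre level was 18413 to 31773 CPM in KO_4C and 12780 to 22963 CPM in KO_RT, and 19143 to 31828 CPM in control_4C and 12465 to 22064 CPM in control_RT. Of 18 tested macrophage genes, 9 were higher and none lower in control rats, and 8 higher and none lower in knockout rats. Their summed level was 418 to 637 CPM in KO_4C and 313 to 459 CPM in KO_RT, and 502 to 975 CPM in control_4C and 305 to 541 CPM in control_RT, with no marker at 0 in every library. The called macrophage genes included Gpnmb, a glycoprotein of lipid-laden macrophages, Lyz2, a lysozyme, and Cd163, the haemoglobin scavenger receptor.

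With the mean level of the slow-fibre genes as a covariate, the Ucp2 change was 1.04 ± 0.37 in control rats (adjusted p = 0.0946) and 1.03 ± 0.34 in knockout rats (adjusted p = 0.0903), so neither passed; 420 and 405 genes passed in these fits, in place of 2399 and 1596. With the macrophage genes as a covariate it was 1.31 ± 0.37 in control rats (adjusted p = 0.0937, 86 genes passing) and 1.30 ± 0.31 in knockout rats (adjusted p = 0.0127, 446 genes passing). Both covariates differ between the temperatures, so these fits cannot separate a part of the cell types from the cold. The part of these cell types in the Ucp2 result was not tested. Within groups, Ucp2 and the summed macrophage level had Pearson r of 0.20 in KO_4C and 0.42 in KO_RT (n = 9 each), and -0.36 in control_4C and -0.073 in control_RT (n = 7 each), given as a description.

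In the other marker lists the counts of called genes differed in direction and between genotypes. A call in only 1 genotype is not a tested difference between them, and 3 of 11594 tested genes passed the interaction. Among all tested genes, 12.4% were called higher in the cold in control rats and 7.49% in knockout rats. Several of the counts below are not far from those shares. Endothelial genes were called higher in 6 of 13 in knockout rats and 3 of 13 in control rats, Flt1, a VEGF receptor, in both. Their summed level was 757 to 1257 CPM in KO_4C and 589 to 861 CPM in KO_RT, and 675 to 1088 CPM in control_4C and 599 to 817 CPM in control_RT. White adipocyte genes were called higher in 2 of 13 in knockout rats and 6 of 13 in control rats, Fabp4 and Lpl in both. They summed to 858 to 1543 CPM in KO_4C and 382 to 951 CPM in KO_RT, and to 716 to 984 CPM in control_4C and 425 to 525 CPM in control_RT. Both tested neutrophil genes, S100a8 and S100a9, were higher in each genotype, at summed levels, over the 3 with a row, of 4.36 to 12.0 CPM in KO_4C and 0.966 to 3.91 CPM in KO_RT, and of 2.33 to 7.50 CPM in control_4C and 1.002 to 2.84 CPM in control_RT. Erythroid genes were higher in 2 of 7 in knockout rats and 5 of 7 in control rats, and their sum reached 5074 CPM in 1 control_4C library. Smooth muscle genes were called higher in 4 of 10 and fibroblast genes in 3 of 10 in control rats, and in knockout rats 0 of 10 and 0 of 10, with 1 fibroblast gene lower (Col1a1). The median summed fibroblast level was 1541 CPM in KO_4C and 1593 CPM in KO_RT, and 1854 CPM in control_4C and 1631 CPM in control_RT. In knockout rats DESeq2 called 0 smooth muscle genes too. Lymphocyte genes were called in 1 of 6 in control rats (Coro1a) and in 0 of 6 in knockout rats by edgeR and by DESeq2.
Of 12 brown adipocyte markers 4 had a row and were tested; 1 was lower in control rats, Cox8b, a subunit of cytochrome oxidase also made in muscle, and none was called in knockout rats by edgeR, while DESeq2 called 1. Their median summed level was lower in the cold, at 1039 CPM in KO_4C and 1172 CPM in KO_RT, and at 1005 CPM in control_4C and 1231 CPM in control_RT.

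Ucp3 transcripts did not pass the test in either genotype. The lowest, median and highest Ucp3 levels were 54.0, 92.4 and 255 CPM in control_4C, against 106, 140 and 208 CPM in control_RT. Of the 7 control_4C libraries 6 lay at or below 103 CPM, under every control_RT library, and replicate 4 lay above them all. In knockout rats Ucp3 was at 44.1, 149 and 248 CPM (lowest, median, highest) in KO_4C, against 75.1, 131 and 184 CPM in KO_RT, and the groups overlapped across most of their range. The means were 111 ± 65.6 CPM in control_4C and 147 ± 43.2 CPM in control_RT (SD, n = 7 each), and 151 ± 59.0 CPM in KO_4C and 124 ± 38.6 CPM in KO_RT (SD, n = 9 each).

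The log2 change of Ucp3 was -0.41 ± 0.30 SE in control rats (95% interval -1.02 to 0.21, adjusted p = 0.363) and 0.28 ± 0.26 in knockout rats (interval -0.26 to 0.82, adjusted p = 0.542) by edgeR's quasi-likelihood test. Exact permutation p-values, two-sided, were 0.117 and 0.483 (0.311 and 0.644 adjusted over 8 tests). The control value rested on 1 library: without control_4C replicate 4 the log2 change was -0.77 ± 0.27 and passed (adjusted p = 0.0438), and without any other single library it stayed between -0.49 and -0.29 and did not pass. In knockout rats the change without KO_4C replicate 9, the library of lowest Ucp3, was 0.40 ± 0.24 (adjusted p = 0.308), and without replicate 1, that of highest Ucp3, 0.14 ± 0.26 (adjusted p = 0.777). Without the 4 libraries that stood apart the log2 change was -0.49 ± 0.34 in control rats (adjusted p = 0.374) and 0.23 ± 0.30 in knockout rats (adjusted p = 0.715). Counting error was a small part of this spread, since Ucp3 had 428 to 4314 counts per library and median counting errors of 3.29% to 4.24% by group.

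**Figure D3:**
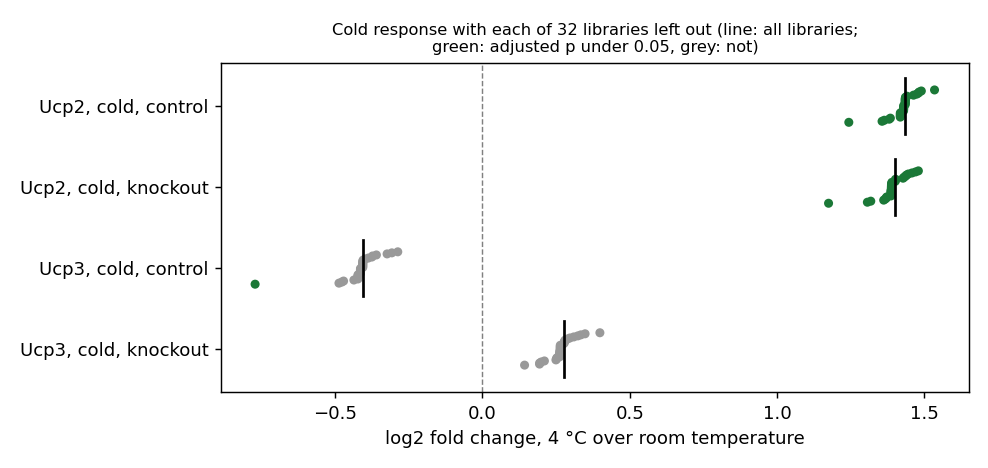
Log2 change of Ucp2 and Ucp3 in the cold relative to room temperature with each of the 32 libraries left out (points; green where the adjusted p is under 0.05), beside the value from all libraries (black line). Ucp2 stays between 1.17 and 1.53 and passes each time, and Ucp3 in control rats moves to -0.77 when control_4C replicate 4 is left out.

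Between genotypes, the log2 change of Ucp3 was -0.24 ± 0.28 for KO_RT over control_RT (interval -0.81 to 0.33, adjusted p = 0.728) and 0.44 ± 0.28 for KO_4C over control_4C (interval -0.14 to 1.02, adjusted p = 0.511). The cold responses of the 2 genotypes differed by 0.68 ± 0.40, knockout minus control (interval -0.13 to 1.499, adjusted p = 0.490). The value at 4 °C and the difference in cold response rested in part on single libraries. Without control_4C replicate 4 the change at 4 °C was 0.78 ± 0.26 (adjusted p = 0.106) and the difference in cold response 1.04 ± 0.35 (adjusted p = 0.210) in edgeR. Without KO_4C replicate 9 these were 0.57 ± 0.26 (adjusted p = 0.328) and 0.80 ± 0.36 (adjusted p = 0.355) in edgeR. With either library left out both had an unadjusted p under 0.05, and neither passed after adjustment. With all libraries, across both genotype comparisons and the interaction, 0 of the 2 genes passed in edgeR, in DESeq2 or at an unadjusted p under 0.05. Of tested genes, 2.61% passed in edgeR at room temperature, 0.0518% at 4 °C and 0.0259% in the interaction, and 17.2%, 14.6% and 12.9% had an unadjusted p under 0.05. By level the groups ran KO_4C, control_RT, KO_RT and control_4C, and each neighbouring pair of means was closer than the SD of either group. On the authors' normalised scale Ucp3 averaged 1939 ± 760 in KO_4C and 1618 ± 498 in KO_RT (SD, n = 9 each), and 1443 ± 849 in control_4C and 1921 ± 570 in control_RT (SD, n = 7 each).

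Because both genes are counted in the same library, the ratio of Ucp3 to Ucp2 counts does not depend on library size or scaling. The lowest, median and highest ratios were 2.54, 9.25 and 21.5 in control_4C, against 22.0, 32.8 and 48.5 in control_RT. The control groups did not overlap, and the mean log2 ratio was lower by 1.93 in control_4C (3.82-fold; exact permutation p = 0.000583, two-sided, 0.00233 adjusted over 4 comparisons). In knockout rats the ratios were 1.69, 14.2 and 43.6 (lowest, median, highest) in KO_4C, against 11.4, 34.2 and 41.0 in KO_RT, and they overlapped. The mean log2 ratio was lower by 1.09 in KO_4C (2.13-fold; exact permutation p = 0.0153, adjusted 0.0305). That call was lost when any 1 of 5 KO_RT libraries was left out (KO10, KO13, KO14, KO15 or KO17, adjusted p up to 0.0635) and when medians were compared (-1.27, adjusted p = 0.0757). Without the 4 libraries that stood apart the differences were -1.84 in control rats and -1.20 in knockout rats, and both passed (exact permutation, adjusted p = 0.0101 and 0.0243). Between genotypes the log2 ratio differed by -0.27 for KO_RT minus control_RT and by 0.57 for KO_4C minus control_4C (exact permutation, adjusted p = 0.337 for each). The difference at 4 °C was 0.94 without KO_4C replicate 9, with an adjusted p of 0.0420 by the exact permutation test.

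The 2 cold libraries of highest Ucp2 were those of lowest Ucp3 in their groups. KO_4C replicate 9 had 26.2 CPM of Ucp2 and 44.1 CPM of Ucp3, and control_4C replicate 2 had 21.3 CPM of Ucp2 and 54.0 CPM of Ucp3. Looked at after this was seen, Pearson r between the log2 levels was -0.61 in KO_4C (n = 9, exact permutation p = 0.0945, adjusted 0.283; Spearman rho -0.22, exact p = 0.581) and -0.052 in KO_RT (n = 9, exact p = 0.898; rho -0.25, exact p = 0.521). It was -0.40 in control_4C (n = 7, exact p = 0.297, adjusted 0.396; rho -0.54, exact p = 0.236) and 0.62 in control_RT (n = 7, exact p = 0.141, adjusted 0.283; rho 0.61, exact p = 0.167). None of the 4 relations passed after adjustment. In each group r was also taken without the 2 libraries farthest from its median Ucp2. It turned to 0.85 in KO_4C (without replicates 9 and 1, n = 7) and to 0.79 in control_4C (without replicates 2 and 1, n = 5). The sign of r in the cold groups thus depends on which libraries are kept. In control_4C the libraries kept include replicate 4, with 11.9 CPM of Ucp2 and 255 CPM of Ucp3. The positive value there may rest on that library, and r without it was not taken. In KO_RT r was then -0.11 (n = 7) and in control_RT 0.82 (n = 5).

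**Figure D4:**
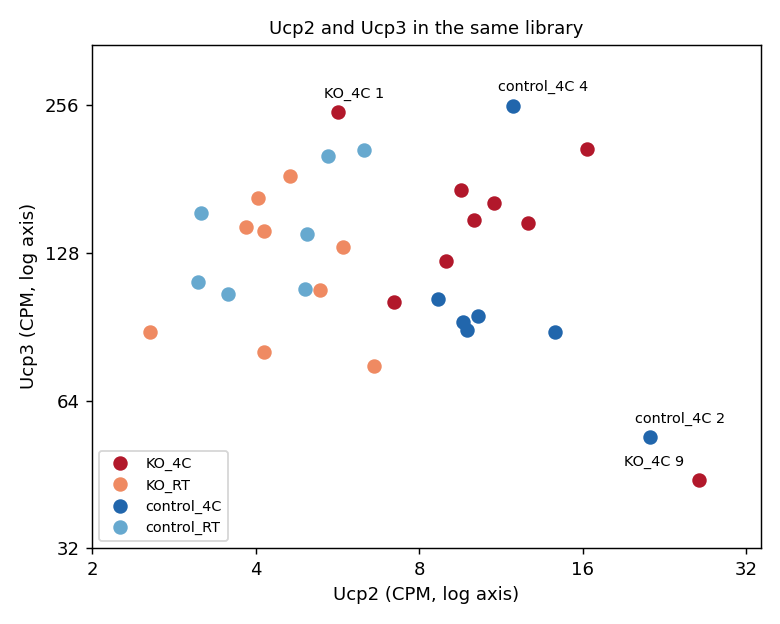
Ucp3 against Ucp2 in the same library, in CPM on log axes; each point is a library, coloured by group, with 4 cold libraries named by group and replicate. KO_4C replicate 9 and control_4C replicate 2 lie at the lower right, at 44.1 and 54.0 CPM of Ucp3, and control_4C replicate 4 lies at 255 CPM.

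The genes whose levels ran most like the members over the 32 libraries were picked from 6952 genes with a mean of at least 5 CPM, by Pearson r of log2 CPM, as a description. For Ucp2 these were Gpnmb (r = 0.84), Gpx1, a glutathione peroxidase (0.82), Fbln2, a matrix fibulin (0.82), Adgrf5, an adhesion receptor of endothelium (0.81), and Cilp, a matrix protein (0.80). All 5 were higher in the cold in both genotypes, so the temperature difference enters each of these values. Gpnmb was at 13.3, 20.6 and 28.4 CPM (lowest, median, highest) in KO_4C and 5.25, 7.34 and 10.5 CPM in KO_RT, and at 18.5, 24.4 and 38.1 CPM in control_4C and 4.68, 6.68 and 13.1 CPM in control_RT. Its log2 change was 1.46 ± 0.18 SE in knockout rats (adjusted p = 1.03e-06) and 1.70 ± 0.21 in control rats (adjusted p = 1.78e-06), and the cold and room-temperature groups did not overlap in either genotype. Within groups its r with Ucp2 was 0.43 in KO_4C and 0.76 in KO_RT, and 0.00086 in control_4C and 0.53 in control_RT. Over deviations from the group means, which leave the group differences out, Ucp2 ran most like Fst, follistatin, an inhibitor of myostatin and activins (0.61), Mrpl47 (0.59), Phf12 (0.57), Mgmt (0.57) and Ddah1 (0.56). Without the 2 libraries farthest from the median Ucp2, these 5 values lay between 0.48 and 0.53.

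Ucp3 ran most like Mlycd, malonyl-CoA decarboxylase, which lowers the inhibitor of fatty acid entry into mitochondria. Their r was 0.68 over levels and 0.74 over deviations from group means, and Mlycd came first by both measures and also by Spearman rho (0.70 and 0.73). Within groups r was 0.66 in KO_4C and 0.83 in KO_RT (n = 9 each), and 0.90 in control_4C and 0.60 in control_RT (n = 7 each), so the relation pointed the same way in all 4. Without the 2 libraries farthest from the median Ucp3, r was 0.75 over levels. Mlycd was at 152, 173 and 213 CPM (lowest, median, highest) in KO_4C and 108, 136 and 177 CPM in KO_RT, and at 123, 145 and 188 CPM in control_4C and 128, 159 and 177 CPM in control_RT. In control_4C the libraries of lowest and highest Mlycd were also those of lowest and highest Ucp3 (replicates 2 and 4), and in KO_RT the lowest was KO8 for both, while the other extremes fell in different libraries. Mlycd was higher in KO_4C than in KO_RT (log2 change 0.36 ± 0.096 SE, adjusted p = 0.00902) and at -0.082 ± 0.11 in control rats (adjusted p = 0.637); its interaction, 0.44 ± 0.14, did not pass (adjusted p = 0.168).
After Mlycd came Trim39 (0.62), Uba3 (0.60), Zswim7 (0.53) and Polr3a (0.53) over levels, and Tead4 (0.64), Ephx2 (0.64), Uba3 (0.64) and Trim39 (0.60) over deviations. Without the same 2 libraries the values over deviations were 0.53 for Tead4, 0.30 for Ephx2, 0.50 for Uba3 and 0.41 for Trim39, and within control_RT that of Tead4 was -0.56. Over levels they were 0.47 for Trim39, 0.48 for Uba3, 0.44 for Zswim7 and 0.53 for Polr3a. Between Ucp2 and Ucp3 themselves r was -0.25 over levels and -0.31 over deviations.

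**Figure D5:**
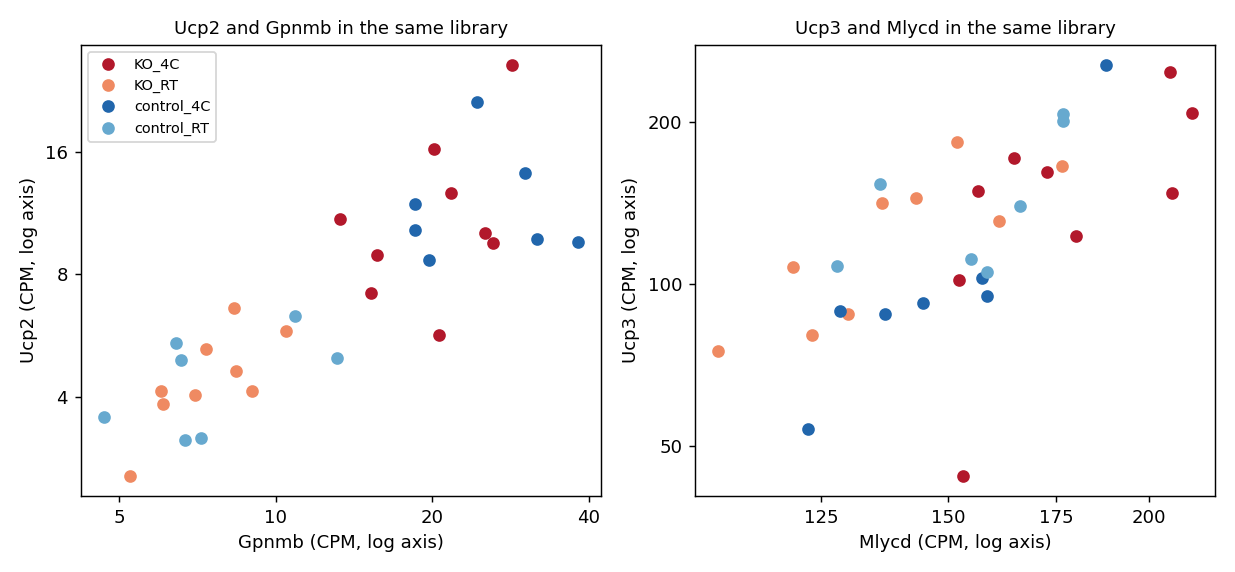
Ucp2 against Gpnmb (left) and Ucp3 against Mlycd (right) in the same library, in CPM on log axes; each point is a library, coloured by group. The Ucp2 panel separates cold from room-temperature libraries (r = 0.84 over all, 0.00086 within control_4C), while in the Ucp3 panel the groups mix and KO_4C replicate 9, at 44.1 CPM of Ucp3, lies below the rest (r = 0.68).

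Targets of PPAR receptors and of fasting are the genes with which Ucp3 is usually grouped. Among all tested genes, 12.4% were higher in the cold in control rats and 7.49% in knockout rats. Of 21 tested genes of this list 10 were higher and 1 lower in control rats, and 8 higher and none lower in knockout rats, with median log2 changes of 0.29 and 0.22 against 0.031 and 0.012 over all tested genes. Lpl, lipoprotein lipase, had log2 changes of 0.75 ± 0.15 SE in control rats (adjusted p = 0.000433) and 1.32 ± 0.13 in knockout rats (adjusted p = 2.37e-08). Plin5, which ties lipid droplets to mitochondria, had 0.71 ± 0.15 (adjusted p = 0.00113) and 1.11 ± 0.14 (adjusted p = 5.85e-07). The 1 member lower in control rats was Pdk4, the kinase that restrains pyruvate oxidation in fasting, at 6.14 ± 2.04 CPM in control_4C and 10.9 ± 4.75 CPM in control_RT (SD, n = 7 each; log2 change -0.85 ± 0.30 SE, adjusted p = 0.0405). In knockout rats Pdk4 had a log2 change of -0.024 ± 0.27 (adjusted p = 0.967), and the interaction did not pass (0.83 ± 0.40, adjusted p = 0.378). Angptl4, an inhibitor of lipoprotein lipase, did not pass, with log2 changes of -1.23 ± 0.49 in control rats (adjusted p = 0.0718) and -1.01 ± 0.43 in knockout rats (adjusted p = 0.123). Over deviations from group means, 18 of the 21 had a positive r with Ucp3 (median 0.22) and 7 of 21 with Ucp2 (median -0.044), beside medians of 0.0020 and 0.0018 over all genes. The list includes Mlycd, already picked above as most like Ucp3. Within groups, Ucp3 and the summed level of the list had Pearson r of 0.23 in KO_4C and 0.45 in KO_RT. In control_4C it was 0.81 and in control_RT 0.16.

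Among 21 tested regulators proposed for Ucp2 and Ucp3, 2 were higher and 5 lower in control rats, and 1 higher and 2 lower in knockout rats. Beside this, 20.7% of all tested genes passed in control rats and 13.8% in knockout rats, and the knockout count is near that share. Esrrg, an oestrogen-related receptor of oxidative fibres, was higher in both, by 0.69 ± 0.13 on the log2 scale in control rats and 0.70 ± 0.11 in knockout rats (adjusted p = 0.000275 and 3.96e-05). Thra, the main thyroid hormone receptor of muscle, was lower in both, at -0.66 ± 0.11 and -0.52 ± 0.095 (adjusted p = 6.56e-05 and 0.000179). Ppard, the PPAR of muscle, had 0.24 ± 0.15 and 0.050 ± 0.13 (adjusted p = 0.285 and 0.850), and the coactivator Ppargc1a -0.053 ± 0.23 and -0.55 ± 0.20 (adjusted p = 0.898 and 0.0634), so neither passed. Ppara had at most 18 counts in a library and was not tested. Rxrg was lower in control rats (-0.50 ± 0.14, adjusted p = 0.0106) and Rxra in knockout rats (-1.59 ± 0.54, adjusted p = 0.0427); both encode partners of PPAR and thyroid hormone receptors. Of 13 thyroid hormone genes 3 were higher and 2 lower in each genotype. Atp2a2, the slow-fibre calcium pump, was higher, by 0.94 ± 0.17 in control rats and 0.80 ± 0.15 in knockout rats, and Me1, malic enzyme, lower, at -0.56 ± 0.12 and -0.42 ± 0.10. Thrb had 0.038 ± 0.078 and 0.056 ± 0.068 (adjusted p = 0.773 and 0.644).

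Among mitochondrial carriers, which include relatives of the uncoupling proteins, the share that passed was near that of all tested genes (20.7% in control and 13.8% in knockout rats). Of 16 tested mitochondrial carriers 3 were higher and none lower in control rats: Mpc2, a pyruvate carrier subunit (log2 change 1.56 ± 0.30 SE, adjusted p = 0.000517), Slc25a5, an ADP/ATP carrier (1.04 ± 0.25, adjusted p = 0.00294), and Slc25a35 (0.75 ± 0.19, adjusted p = 0.00395). In knockout rats 1 was higher, Slc25a20, the carnitine-acylcarnitine carrier (0.63 ± 0.12, adjusted p = 0.000270), and 1 lower, Slc25a11, the oxoglutarate carrier (-0.25 ± 0.074, adjusted p = 0.0177). Slc25a4, the main ADP/ATP carrier of muscle, had 0.035 ± 0.15 in control rats and 0.27 ± 0.13 in knockout rats (adjusted p = 0.900 and 0.183). Of 14 antioxidant genes, not all of them particular to mitochondria, 2 were higher and 1 lower in control rats, and 3 higher and none lower in knockout rats. Gpx1 was at 740 ± 115 CPM in KO_4C and 356 ± 54.7 CPM in KO_RT (SD, n = 9 each), and at 733 ± 87.9 CPM in control_4C and 369 ± 75.6 CPM in control_RT (SD, n = 7 each), with adjusted p = 6.19e-08 and 2.26e-06 by edgeR. Sod2, the matrix superoxide dismutase, had log2 changes of 0.049 ± 0.13 in control rats and 0.24 ± 0.12 in knockout rats (adjusted p = 0.830 and 0.180).

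Of 15 tested genes of other heat-producing cycles of muscle 4 were higher and 3 lower in control rats, and 4 higher and 2 lower in knockout rats. The shares over all tested genes were 12.4% higher and 8.28% lower in control rats, and 7.49% and 6.28% in knockout rats. Sln, sarcolipin, which uncouples calcium transport from ATP use, was at 12.9, 31.8 and 42.8 CPM (lowest, median, highest) in KO_4C and 0.574, 3.95 and 6.16 CPM in KO_RT, and at 10.1, 21.7 and 73.1 CPM in control_4C and 1.67, 2.81 and 4.43 CPM in control_RT. The cold and room-temperature groups did not overlap in either genotype, and its log2 changes were 3.01 ± 0.37 SE in knockout rats and 3.29 ± 0.43 in control rats (adjusted p = 1.49e-06 and 8.64e-06). Pln, phospholamban, was higher in control rats (0.65 ± 0.17, adjusted p = 0.00476), and Ryr1, the calcium release channel, was lower in knockout rats (-1.08 ± 0.17, adjusted p = 5.35e-05). Fast fibre genes were lower in 9 of 13 in control rats and 7 of 13 in knockout rats, and none was higher. Muscle identity genes, which share several of them, were lower in 6 of 14 in each genotype, with Actn3 at -0.74 ± 0.11 in control rats and -0.66 ± 0.10 in knockout rats.

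None of the 4 tested neighbours of the 2 genes was called higher in the cold. Of all tested genes 12.4% were called higher in control rats and 7.49% in knockout rats, so 4 genes cannot show a difference from that share. Of the 3 nearest protein-coding genes on each side in the reference order, 4 had a row and were tested. C2cd3 and Ppme1 before Ucp3 had log2 changes of -0.32 ± 0.47 and -0.15 ± 0.097 in control rats and 0.20 ± 0.42 and 0.0058 ± 0.086 in knockout rats, none of which passed. C2cd3 averaged only 0.585 CPM over all libraries. After Ucp2, Coa4 had -0.27 ± 0.15 in control rats and 0.36 ± 0.14 in knockout rats (adjusted p = 0.220 and 0.0683). Mrpl48, a mitochondrial ribosomal protein, was lower in control rats (-0.43 ± 0.11, adjusted p = 0.00424) and had -0.16 ± 0.094 in knockout rats (adjusted p = 0.287). P4ha3 and Dnajb13 were not analysed here.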

How the data were processed

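The authors deposited raw counts, whole-number read counts per Ensembl gene, and a normalised signal. The signal equals the deposited count over a constant for its library, from 0.523 to 2.06. Per the submitters' processing notes, the build was Rnor 6.0 and the software included DESeq2 1.18.1 under R 3.4.3. For aligner and counter: not given in the sources used here. Per the labels' protocols, QuantSeq 3′ libraries were made from Trizol-prepared RNA.

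The deposited counts were fitted in R 4.3.3 with edgeR 4.0.16: filterByExpr (minimum count 10, smallest group 7) kept 11594 genes and left out 1307, and 1 robust quasi-likelihood model with TMM factors and a mean for each group covered the 32 libraries. Benjamini-Hochberg adjustment ran within each contrast, with a threshold of 0.05. The SE is the absolute log2 change over the square root of F. Log2 CPM used a prior count of 2. The code was tested on simulated data. Alternatives were RLE factors, no filter, DESeq2 1.42.0, counts divided by 2, a fit of only the groups compared, a replicate block (without KO8 and KO9, whose columns could be tied to a group but to no replicate number), 2 covariates, without 4 libraries, an adjusted p of 0.01, and each library left out. Exact permutation tests went through every split or order of the libraries in Python 3.11.15 with numpy 2.4.6. The t quantiles of the intervals came from scipy 1.17.1.

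Total counts averaged 1.36e+07 ± 5.93e+06 in KO_4C and 1.37e+07 ± 2.67e+06 in KO_RT (SD, n = 9 each), and 1.31e+07 ± 4.62e+06 in control_4C and 1.42e+07 ± 2.38e+06 in control_RT (SD, n = 7 each). No 2 libraries of a group were duplicates (chi-square per degree of freedom at least 5.70). Symbols came from the table (11693 genes) and from 11138 matches to a RefSeq table. RefSeq promoter windows were read for both genes. Named genes were the members, the 5 genes most like each by either measure, the nearest neighbours, the up to 3 list members of smallest p per cold comparison, and 9 others; not all are printed. Slc25a11, Gpx1, Myh1 and other genes with near-identical copies could share reads; Myh2 and Myh4 were not analysed here. The members and lists were chosen with earlier results of these data known.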

Additional observations from a re-analysis of the deposited data

Results flagged for a closer look

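Of 28 groups of values examined for a library far from the others of its group (Dixon's criterion), 4 held one; chance flags about 1 in 20 groups. Ucp3 in control_4C replicate 4 was 255 CPM, with the nearest other control_4C library at 103 CPM. The log2 ratio of Ucp3 to Ucp2 counts in KO_4C replicate 9 was 0.753, with the nearest other KO_4C library at 3.54. The summed level of the lymphocyte markers was 23.2 CPM in KO_4C replicate 2, with the nearest other at 14.2 CPM, and 23.6 CPM in control_RT replicate 4, with the nearest other at 15.9 CPM. Neither lymphocyte library is one of the cold libraries singled out for Ucp2 or Ucp3.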

How the results depend on the processing

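The higher Ucp2 in the cold passed under every alternative in both genotypes except the covariates. With the slow-fibre covariate its log2 change was 1.04 in control and 1.03 in knockout rats, and with the macrophage covariate 1.31 in control rats, none of which passed; both covariates differ between the temperatures, and the cause was not tested. Ucp2 values near 0 changed sign: KO_RT over control_RT was 0.013 with the slow-fibre and 0.00698 with the macrophage covariate, and the interaction was 0.15 without the 4 libraries that stood apart. With medians, the log2 ratio of Ucp3 to Ucp2 differed by -1.27 in the cold in knockout rats, which did not pass, and by 0.061 for KO_RT minus control_RT. Ucp3 was not called under any alternative except without control_4C replicate 4.

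With 1 library left out, the log2 change of Ucp2 ran from 1.24 to 1.53 in the cold in control rats, 1.17 to 1.48 in knockout rats, -0.094 to 0.084 for KO_RT over control_RT, -0.26 to 0.15 for KO_4C over control_4C and -0.26 to 0.16 in the interaction. For Ucp3 it ran from -0.77 to -0.29, 0.14 to 0.40, -0.34 to -0.15, 0.30 to 0.78 and 0.56 to 1.04 in the same order. The log2 ratio ran from -2.15 to -1.64 in the cold in control rats, -1.31 to -0.73 in knockout rats, -0.36 to -0.12 for KO_RT minus control_RT and 0.28 to 0.94 for KO_4C minus control_4C. Genes called ran from 1806 to 2827, 1331 to 1709, 80 to 792, 0 to 556 and 0 to 226 in the 5 contrasts, so counts between genotypes rest on single libraries.

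Genes called in the cold were 2399 in control and 1596 in knockout rats; they were 420 and 405 with the slow-fibre covariate, 86 and 446 with the macrophage covariate, and 1209 and 799 at an adjusted p of 0.01. KO_RT against control_RT gave 303 genes, but 0 in a fit of those groups alone, 708 without the 4 libraries, 577 with DESeq2 and 21 at 0.01. KO_4C against control_4C gave 6 genes, but 121 with RLE factors, 3 with no filter, 81 with counts divided by 2, 0 in those groups alone, 375 with the slow-fibre and 0 with the macrophage covariate, 436 with DESeq2 and 0 at 0.01. The interaction gave 3 genes, but 1 with no filter or either covariate, 288 without the 4 libraries, 112 with DESeq2 and 0 at 0.01. Counts of called genes in the lists stayed within 1.5 times in 120 of 162 settings in the cold in control rats, 123 of 162 in knockout rats, 135 and 147 of 162 between genotypes at room temperature and 4 °C, and 135 of 144 in the interaction.

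Whether replicate numbers pair the samples was not settled, since each 2 groups shared only 5 to 7 numbers. Same-numbered deviations correlated from -0.29 to 0.44. Their median for 2 groups ran from 0.0051 to 0.27, against -0.038 to 0.010 for libraries of other numbers. With the replicate block, which left out KO8 and KO9, Ucp2 had 1.39 in the cold in control and 1.41 in knockout rats, and no call on the members changed. Near 0, KO_RT over control_RT became 0.018 for Ucp3 and the interaction 0.020 for Ucp2. Genes called were 212 for KO_RT against control_RT, and 0 for KO_4C against control_4C and in the interaction. Depth limits the precision of single Ucp2 values: at 38 to 92 counts in room-temperature libraries, the median counting error is 18.3%, below the spread between libraries.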

Other observations

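The genes most like the members depended on the measure of likeness. By Spearman rho, 2 of the 5 genes nearest to Ucp2 over levels and 3 of 5 over deviations were among the 5 named by Pearson r, and for Ucp3 3 of 5 and 1 of 5. The genes that then entered for Ucp3 over deviations included Plin5 (rho 0.68) and Fabp3 (rho 0.60), which handle fatty acids within the fibre. For Ucp2 over levels Ctsl (rho 0.82) and Cst3 (rho 0.82), a lysosomal protease and an inhibitor of such proteases, entered. Among the lists, all 15 slow-fibre genes had a positive r with Ucp2 over deviations from group means, with a median of 0.18, and 12 of 18 macrophage genes, with a median of 0.058. Within groups, Ucp2 and the summed slow-fibre level had Pearson r of only 0.013 in KO_4C and 0.055 in KO_RT. In control_4C it was 0.18 and in control_RT 0.64. Of the erythroid genes, 1 of 7 had a positive r with Ucp3 and the median was -0.26. These values are descriptions over 32 libraries that share their scaling, with no test.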
